A study of Mus musculus with 6 samples.

Results

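Broad CTCF peaks are the small set of peaks that ran over 8 kb or more in CTCF binding profiles of regulatory T cells from the mouse thymus. Members were chosen by width alone: peaks on chromosomes 1 to 19 of 8000 bp or more were kept in each of 6 peak lists and merged wherever they overlapped by at least 1 bp. This kept 2683 of 166032 peaks, and they merged into 1638 broad regions. All peaks on these chromosomes, merged separately, formed 90494 regions. Because width chose the members, counts and widths of broad peaks are given as a description with no test.

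The study profiled CTCF binding with and without cGAS. There were 3 libraries from Cgas knockout (Cgas_KO) cells and 3 from wild-type (WT) cells, all labelled as thymic regulatory T cells, and 1 peak list per library. The labels give no age, sex, strain, sorting markers or allele of the knockout, and do not say whether replicates came from separate animals, so each p-value reflects the spread among these 6 samples alone, and that spread may be technical. The assay was CUT&RUN: a nuclease held at the bound protein by an antibody cuts the DNA around it, and the released DNA is sequenced.

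CTCF is a zinc-finger protein that stops the cohesin complex as it extrudes loops of DNA, and so helps to set the borders of chromosome domains. It typically binds a short motif, and a single bound site gives a narrow, tall peak. cGAS is a sensor of cytosolic DNA that makes the messenger cGAMP, which activates STING. A peak of many kilobases is therefore wider than 1 bound motif would give, and can hold several sites or a stretch of raised signal. All positions are in mm39 and counted from 1. Regions are named by position, with neither genes nor sequence, because no mm39 genome or annotation was used here. Neither the knockout nor the cell type could be checked against its genes from these lists.

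The lists held 27044 to 30535 peaks in Cgas_KO and 26047 to 27775 in WT on chromosomes 1 to 19. Read depth is unknown, since the lists give signal only inside peaks. Peak maxima came in whole steps in every list. Height, the maximum of a peak, is counted in steps or divided by the list median, which was 11 to 14 steps in Cgas_KO and 13 to 14 in WT. A step was worth 0.118 ± 0.00196 signal units in Cgas_KO and 0.199 ± 0.0119 in WT (SD, n = 3 each), so signal units were not compared between lists. Each list ended at a lowest total signal, 8487 to 13435 steps times bases in Cgas_KO and 11548 to 13545 in WT, so a narrow peak had to be taller than a wide one to be listed. Cgas_KO replicate 3 stood apart, with the most peaks and the narrowest, at a median width of 2568 bp against 3211 to 3599 bp in the other 5 lists.

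Broad peaks were rare in every list. There were 458, 573 and 175 in Cgas_KO replicates 1, 2 and 3, and 556, 379 and 542 in WT replicates 1, 2 and 3. The genotypes overlapped, and Cgas_KO replicate 3 was the lowest of all. Broad peaks made up 1.44% ± 0.788 of peaks in Cgas_KO and 1.85% ± 0.424 in WT (SD, n = 3 each), and 5.09% ± 2.12 and 6.43% ± 1.02 of the length covered. The mean count was lower in Cgas_KO by 90.3 peaks, and without Cgas_KO replicate 3 it was higher by 23.2, so the direction rests on that list. Most of these peaks lay close to the limit, with median widths of 9714 ± 342 bp in Cgas_KO and 9650 ± 100.5 bp in WT (SD, n = 3 each). A tail reached far beyond it: 18 to 48 peaks per Cgas_KO list and 51 to 57 per WT list were 20 kb or wider. Per list they were 43 of 458, 48 of 573 and 18 of 175 broad peaks in Cgas_KO replicates 1, 2 and 3. In WT replicates 1, 2 and 3 they were 57 of 556, 52 of 379 and 51 of 542. The counts did not overlap between genotypes, but as parts of the broad peaks of each list they did. The widest single peak was 174551 bp, in WT replicate 3.

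The limit of 8000 bp cut through a continuous run of widths. In Cgas_KO replicate 1 the narrowest broad peak was 8000 bp wide and 12 steps high, on chromosome 6 from 125336307 to 125344306, and the widest excluded peak was 7994 bp and 12 steps high, on chromosome 3 from 105633615 to 105641608. In WT replicate 1 the peak just inside was 8020 bp and 22 steps high, on chromosome 11 from 103058923 to 103066942, and the one just outside was 7998 bp and 51 steps high, on chromosome 17 from 36340617 to 36348614. Over the 6 lists the peaks just inside were 8000 to 8020 bp wide and those just outside 7979 to 7999 bp.

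**Figure D1:**
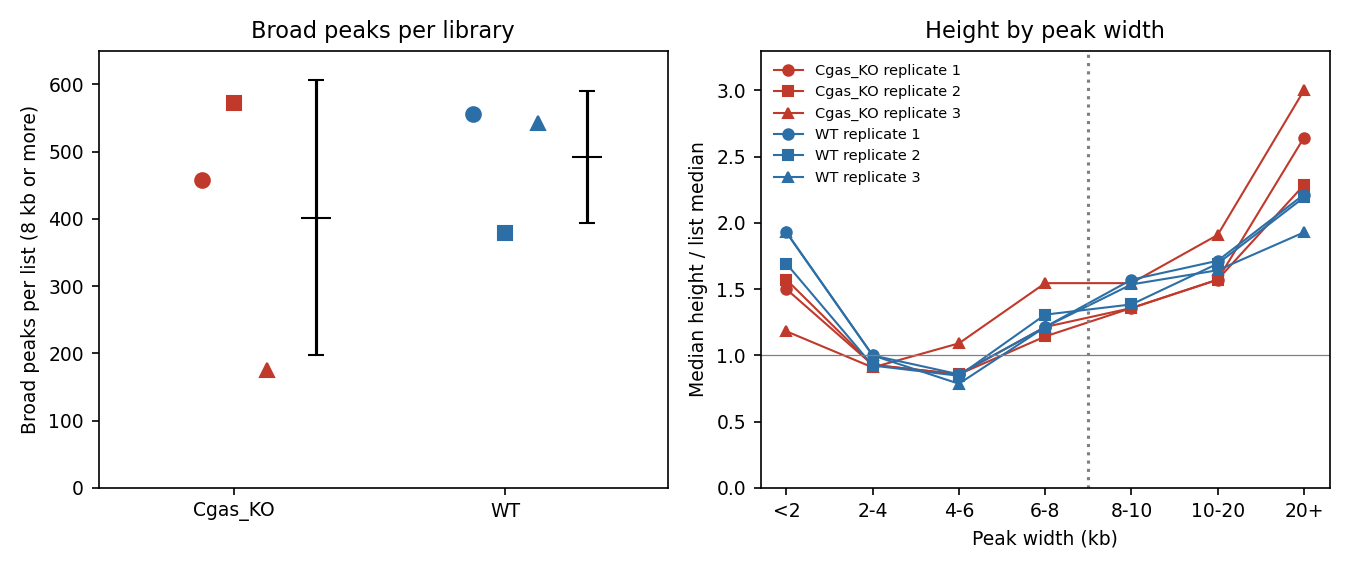
Left, the number of peaks of 8 kb or more in each list, 1 point per library with the mean and SD of each genotype beside it, where Cgas_KO replicate 3 (175) lies below all others. Right, the median peak height over the list median in classes of peak width (kb), 1 line per library, with the dotted line at 8 kb: height is lowest between 2 and 6 kb and higher again in broad peaks.

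Broad peaks were taller than the middle of their lists, though not by much. The median broad peak was 22, 21 and 20 steps high in Cgas_KO replicates 1, 2 and 3, and 24, 20 and 23 steps high in WT replicates 1, 2 and 3. Over the list median this was 1.63 ± 0.167 in Cgas_KO and 1.63 ± 0.0884 in WT (SD, n = 3 each). The difference of -0.0020 was far within the spread (exact permutation test, two-sided, p = 1, adjusted p = 1 over 4 tests by Benjamini-Hochberg). With 3 libraries against 3 the smallest p of an exact permutation test is 0.1. Height did not climb steadily with width. Peaks under 2 kb were tall, those of 2 to 6 kb were the lowest, and height was larger again in the broad classes, as the plot of height by peak width shows. At 20 kb or more the median height was 2.29 to 3.0 times the list median in Cgas_KO and 1.93 to 2.21 times in WT. Those 2 ranges did not overlap, but they rest on only 18 to 48 and 51 to 57 peaks per list.

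Very tall broad peaks were fewer in Cgas_KO. Peaks at least 5 times the list median numbered 32, 28 and 13 of the broad peaks in Cgas_KO replicates 1, 2 and 3, and 64, 40 and 48 in WT replicates 1, 2 and 3. As a share of broad peaks this was 6.43% ± 1.36 in Cgas_KO and 10.3% ± 1.34 in WT (SD, n = 3 each). Among narrower peaks the share was 0.837% ± 0.105 in Cgas_KO and 2.14% ± 0.144 in WT, so the same ordering held outside the broad set. At the other end, 10.2% ± 5.52 of broad peaks in Cgas_KO and 16.2% ± 1.21 in WT were lower than the list median.

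Broad peaks also had a higher median mean signal than all narrower peaks pooled, but stood further below their own maximum. The mean signal, total over width, had a median of 6.03 ± 0.153 steps per base in Cgas_KO and 5.92 ± 0.132 in WT, against 4.87 ± 0.425 and 4.95 ± 0.149 in narrower peaks (SD, n = 3 each). Peaks under 2 kb were above broad peaks in every list except Cgas_KO replicate 3. Their medians were 8.61, 9.03 and 5.79 steps per base in Cgas_KO replicates 1, 2 and 3. In WT replicates 1, 2 and 3 they were 9.87, 8.32 and 9.65. Over the list median the broad value was 1.24 ± 0.117 in Cgas_KO and 1.19 ± 0.0145 in WT (two-sided exact permutation p = 0.9, adjusted 1, n = 3 each). Without Cgas_KO replicate 3 the sign of this difference turned, from 0.0499 to -0.0164. Flatness, the mean signal as a part of the maximum, was 0.291 ± 0.00845 in Cgas_KO and 0.272 ± 0.0178 in WT, and lower than in narrower peaks in every list (two-sided exact permutation p = 0.3 between genotypes, adjusted 0.6, n = 3 each). The maximum lay a median 47.1% ± 2.36 of the way from the peak centre to its edge in Cgas_KO and 43.5% ± 0.348 in WT (SD, n = 3 each). All 3 Cgas_KO values were above all 3 WT values (two-sided exact permutation p = 0.1, the smallest possible, adjusted 0.4), and the same ordering held for narrower peaks, at 36.2% ± 0.868 and 35.1% ± 0.131.

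Most broad regions were broad in a single library. Of the 1638 regions, 1278 (78.0%) had a broad peak in 1 list, 307 in 2 to 5 lists and 53 (3.24%) in all 6. Broad regions covered 19.6 Mb, with a median width of 9339 bp. Width and recurrence went together: the median region was 8973 bp wide when broad in 1 list, 11718 bp in 2 lists, 17447 bp in 4 lists and 37695 bp in all 6. A broad peak in more lists also gives a wider merged region by construction. The 53 regions broad in all 6 lists ranged from 12228 to 218821 bp.

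**Figure D2:**
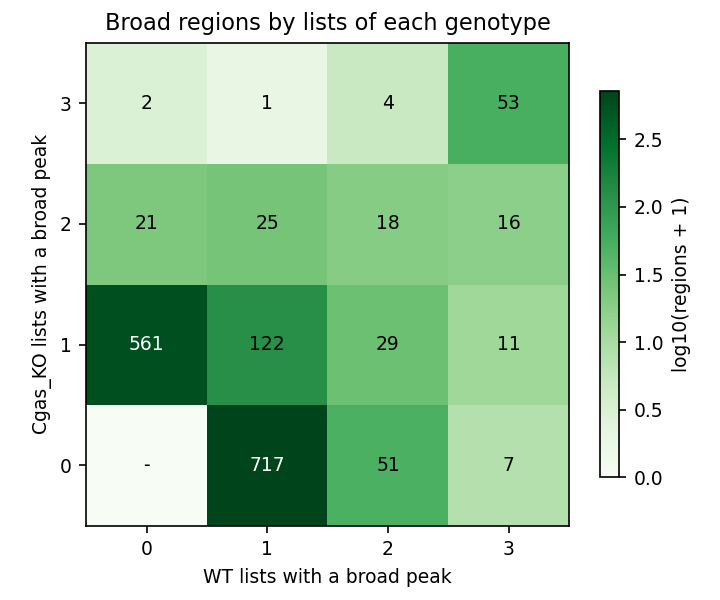
Number of broad regions by how many Cgas_KO lists (vertical axis) and WT lists (horizontal axis) held a broad peak there, with colour showing log10 of the number plus 1. The cells with a single list (561 and 717) hold most regions, 53 are broad in every list, and the cells with all lists of 1 genotype and none of the other hold 2 and 7.

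A region that was broad in only 1 library was usually still bound in the others. Of the 6390 pairs of such a region and a list without a broad peak in it, 27.1% had no peak, 50.8% had 1 narrower peak and 22.1% had 2 or more. Only 98 regions were called in a single list. Where the other lists did have a peak, the median height was 1.5 times the list median, against 1.29 times where the region was broad. The first value is over pairs with a peak and the second over all 1278 regions, so they are not like for like. Splitting was more frequent at higher recurrence. Lists without a broad peak split the region into 2 or more peaks in 53.6% of pairs for regions broad in 2 lists. The share was 73.5% for 3 lists and 90.0% for 4 lists. Regions broad in more lists were also wider, and the part that width plays in this rise was not tested.

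Per library, Cgas_KO lists split broad regions more often. Of the regions in which a list had no broad peak, it held 2 or more peaks in 28.7%, 28.7% and 31.3% in Cgas_KO replicates 1, 2 and 3, and in 23.7%, 27.1% and 23.9% in WT replicates 1, 2 and 3. The ranges did not overlap. The mean difference of 4.66 percentage points was 1.11 when peaks from 6000 bp counted as broad. Width decides where a list counts as split, so no test was made. No such share was computed over all regions, so whether the ordering of the genotypes was particular to broad regions was not tested. A lone narrower peak there had a median width of 3028 to 4174 bp in Cgas_KO and 3699 to 4281 bp in WT. Lists without any peak in the region made up 23.0% to 25.1% in Cgas_KO and 21.8% to 24.3% in WT. The 3 regions that a list without a broad peak split the most all came apart into 5 peaks. On chromosome 4 from 145488618 to 145515875, Cgas_KO replicate 2 had 5 peaks, none over 4539 bp, while WT replicate 3 had 2 peaks, the wider of 20712 bp. Heights there were 19 to 21 steps in Cgas_KO and 21 to 30 in WT. On chromosome 3 from 106069888 to 106098728, Cgas_KO replicate 3 had 5 peaks, and heights were 12 to 15 steps in Cgas_KO and 16 to 20 in WT. On chromosome 4 from 147526126 to 147566879, Cgas_KO replicate 3 again had 5 peaks, and heights were 23 to 28 steps in Cgas_KO and 21 to 34 in WT.

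The maxima of broad peaks fell inside peaks of other lists far more often than those of narrower peaks. Averaged over the other 5 lists, the midpoint of the max-signal interval of a broad peak lay in a peak of another list in 71.1% to 89.9% of cases in Cgas_KO and 70.5% to 75.5% in WT, against 29.5% to 31.1% and 33.4% to 34.5% for narrower peaks. All 5 other lists held it for 49.9% to 76.6% of broad peaks in Cgas_KO and 49.1% to 52.8% in WT. Other lists often cover much of a broad region with wide or several peaks, and the part this plays in the shares was not tested. The highest share belonged to Cgas_KO replicate 3, the list with the fewest broad peaks.

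Agreement on the exact maximum was weak. In the 53 regions broad in all 6 lists, the positions of the maximum spanned a median of 9928 bp over the lists, 37.3% of the region, and came within 200 bp in 6 regions. In the 644 regions broad in 1 list and called in all 6, the span was 2277 bp, and 93 came within 200 bp. Different lists thus placed their highest point at different places along the same wide region.

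Broad regions often lay near each other, and those broad in all lists lay on 17 of the 19 chromosomes. Within 500 kb of another lay 1231 of 1638 (75.2%), and 339 (20.7%) lay within 20 kb. The 4810 regions called in all 6 lists on chromosomes 1 to 19, a larger set, gave 91.9% within 500 kb and a median of 47205 bp to the nearest, against 131618 bp for broad regions. The sets differ in number, and no share within 20 kb was computed for the larger one. Linked at 500 kb, broad regions formed 706 groups, 407 of them a single region, and 78 groups of 5 or more held 667 regions. Chromosome 8 had 3.16 broad peaks per 100 peaks and chromosome 4 had 2.87, while chromosome 13 had 1.02. Of the 53 regions broad in all 6 lists, chromosome 4 held 11, chromosome 8 held 10 and chromosome 1 held 9, together 30, and chromosomes 2 and 18 held 0. Among themselves 62.3% of the 53 lay within 500 kb of another.

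The largest cluster ran over 3129 kb of chromosome 4, from 145127194 to 148256653, and held 53 broad regions, 9 of them broad in all 6 lists. It held 33, 43 and 16 broad peaks in Cgas_KO replicates 1, 2 and 3, and 40, 36 and 37 in WT replicates 1, 2 and 3. Peaks covered 30.7% ± 5.52 of it in Cgas_KO and 35.5% ± 0.553 in WT (SD, n = 3 each), with Cgas_KO replicate 3 the lowest at 24.4%. A tighter cluster on chromosome 1, from 84937036 to 85584035, packed 19 broad regions into 647 kb, 7 of them broad in all 6 lists, and peaks covered 46.6% ± 4.78 of it in Cgas_KO and 53.2% ± 4.43 in WT. The other 3 of the 5 largest clusters lay on chromosome 10 from 79540009 to 81410182 with 22 regions, chromosome 8 from 70598675 to 73326755 with 20 and chromosome 7 from 21197809 to 22595350 with 19. Of their 22, 20 and 19 regions, 12, 15 and 17 were broad in 1 list and 0, 2 and 0 in all 6 lists. Over all broad regions 78.0% were broad in 1 list and 3.24% in all 6. In the clusters on chromosomes 4 and 1 described above, 22 of 53 and 5 of 19 were broad in 1 list.

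The widest broad regions were broad in every library. The first, on chromosome 8 from 21033300 to 21252120, spanned 218.8 kb. Its peaks covered 97.0%, 95.6% and 94.0% of it in Cgas_KO replicates 1, 2 and 3, and 99.4%, 94.3% and 99.3% in WT replicates 1, 2 and 3. What differed was how the covered length was cut: it came as 7, 4 and 11 peaks in the Cgas_KO lists and as 3, 7 and 2 peaks in the WT lists. Heights were 52, 55 and 43 steps in Cgas_KO and 75, 72 and 68 steps in WT, or 3.85 ± 0.118 and 5.25 ± 0.353 times the list median.

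**Figure D3:**
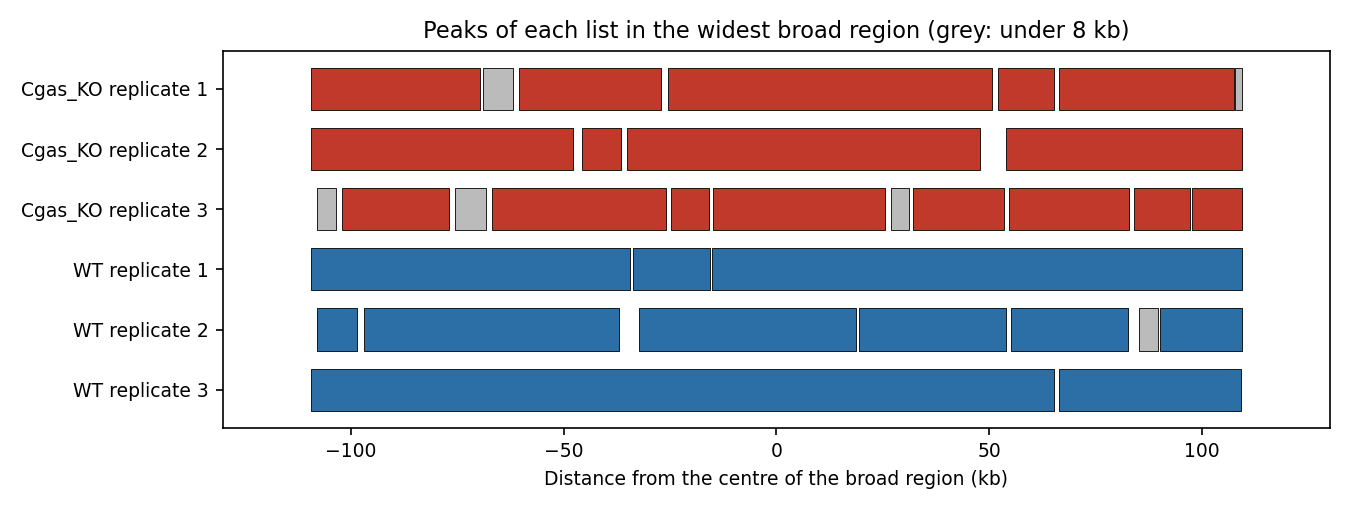
Peaks of each list along the widest broad region, 1 row per library, by distance from the centre of the region in kb; coloured bars are peaks of 8 kb or more and grey bars are narrower peaks. All 6 lists cover nearly the whole region, in 2 to 11 pieces.

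Of the 10 widest, 3 more lay at lower coordinates on chromosome 8. They ran from 19735368 to 19847518, from 19998160 to 20183626 and from 20622746 to 20733139. Their heights over the list median were 7.14 ± 0.431, 4.15 ± 0.971 and 4.65 ± 0.520 in Cgas_KO and 11.8 ± 0.253, 5.95 ± 0.546 and 7.04 ± 0.709 in WT (SD, n = 3 each). All Cgas_KO libraries were below all WT libraries in each of these 4 regions on this scale, on which 34% of the 4896 regions called in all 6 lists were. With heights divided by the median region called in all lists instead, this held only for the region from 19735368 to 19847518. The other 6 lay on chromosome 17 (start 13524819, end 13683656), chromosome 14 (25874471 and 26015418; 43106382 and 43243191), chromosome 4 (146466767 and 146589411), chromosome 1 (88136517 and 88239357) and chromosome 13 (12792840 and 12887052). Over the list median, all Cgas_KO libraries were below all WT libraries also in the region on chromosome 1 and in the one from 25874471 on chromosome 14. In the rest of these 6 they were not. Width did not go with height among the 10 widest. The region on chromosome 17 reached 548, 548 and 341 steps in Cgas_KO and 444, 457 and 424 in WT, whereas the one on chromosome 13 reached 21, 24 and 19 steps in Cgas_KO and 21, 18 and 21 in WT.

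One region dwarfed the others in height. Chromosome 9 from 2999979 to 3040578 reached 28692, 28403 and 19437 steps in Cgas_KO replicates 1, 2 and 3 and 26644, 24464 and 26020 in WT replicates 1, 2 and 3, or 1948 ± 157 and 1881 ± 22.3 times the list median (SD, n = 3 each). The genotypes overlapped. It was a single peak of 38597 to 39432 bp in the Cgas_KO lists and had its widest peak at 38567 to 40600 bp in the WT lists. No region was masked, and the origin of such signal was not tested. This region alone weighed on the share of signal in broad peaks, which was 21.2% ± 1.91 in Cgas_KO and 21.7% ± 0.842 in WT outside the extreme peak at 98 Mb of chromosome 2, and 6.60% ± 2.26 and 7.91% ± 1.12 without this region as well.

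Behind it in height among the regions broad in all 6 lists came chromosome 17 from 13524819 to 13683656 and from 13755936 to 13775956, at 36.4 ± 4.70 and 32.2 ± 5.64 times the list median in Cgas_KO and 32.4 ± 2.5 and 28.6 ± 0.571 in WT (SD, n = 3 each). Chromosome 13 from 120057020 to 120081256 had 273, 295 and 231 steps in Cgas_KO and 247, 225 and 232 in WT, which overlap. Over the list median it stood at 20.5 ± 0.887 in Cgas_KO and 17.2 ± 0.548 in WT, and there all Cgas_KO libraries were above all WT libraries. Chromosome 12 from 113177222 to 113190603 went the other way, with 188, 188 and 103 steps in Cgas_KO and 307, 268 and 259 in WT, or 12.1 ± 2.35 and 20.3 ± 1.73 times the list median. The remaining 5 of the 10 highest were on chromosome 11 (start 3132007, end 3151183), chromosome 6 (47713955 and 47751649), chromosome 8 (19735368 and 19847518, above), chromosome 10 (57977314 and 58022853) and chromosome 7 (59413660 and 59425970). Of these, the one on chromosome 11 reached 16.2 ± 0.544 in Cgas_KO and 17.2 ± 1.06 in WT, with overlapping libraries.

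Regions broad in every list of 1 genotype and in no list of the other were few, 2 for Cgas_KO and 7 for WT. Turned round, 60 regions were broad in all 3 Cgas_KO lists and 88.3% of them were broad in all 3 WT lists, while 87 were broad in all 3 WT lists and 60.9% of them were broad in all 3 Cgas_KO lists. The numbers broad in 1 genotype only rest on single libraries. The Cgas_KO count was 6, 6 and 15 without Cgas_KO replicate 1, 2 or 3, and the WT count was 23, 34 and 18 without WT replicate 1, 2 or 3, where 2 lists of that genotype then suffice. Without Cgas_KO replicate 1 or 2 the WT count was 11 or 15. Broad regions of 1 list were shared with another list in 13.3% to 56.3% of cases between Cgas_KO lists, 21.2% to 35.6% between WT lists, 21.3% to 59.4% of Cgas_KO regions in a WT list and 13.6% to 34.7% of WT regions in a Cgas_KO list.

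Both regions broad in Cgas_KO only had a peak in every WT library, and their mean height over the list median was lower in Cgas_KO, with overlapping libraries. Regions called in all lists were lower in Cgas_KO on this scale too, with a median log2 difference of -0.36. Chromosome 5 from 134514424 to 134526001 held broad peaks of 8136, 8077 and 8069 bp in Cgas_KO and no peak over 6816, 6589 and 7926 bp in WT replicates 1, 2 and 3. Its heights were 33, 45 and 23 steps in Cgas_KO and 61, 34 and 46 in WT. On chromosome 11 from 4162464 to 4173503 the broad peaks were 8748, 8209 and 8632 bp in Cgas_KO against 4629, 2877 and 4605 bp in WT, and heights were 28, 33 and 19 steps in Cgas_KO and 36, 28 and 40 in WT. The Cgas_KO widths lay close to the limit.

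Among the 7 regions broad in WT only, the one that differed most in covered length among the 5 named was chromosome 1 from 171363999 to 171397767. Its widest peaks were 3914, 3612 and 1748 bp in Cgas_KO and 32764, 21412 and 14158 bp in WT, and peaks covered 11.6%, 18.7% and 5.18% of it in Cgas_KO against 97.0%, 89.0% and 85.8% in WT. Heights were 14, 20 and 17 steps in Cgas_KO and 68, 61 and 73 in WT. The highest was chromosome 8 from 107400147 to 107414799, where each Cgas_KO list had 2 peaks of at most 4439, 5921 and 3763 bp and WT lists had peaks of 9735, 8200 and 14581 bp, with 43, 46 and 50 steps in Cgas_KO and 97, 77 and 110 in WT. The others named were on chromosome 11 (start 75053625, end 75066012; 120467044 and 120476767) and chromosome 7 (59385030 and 59401919). Mean height over the list median was lower in Cgas_KO in 5 of the 7. The share of all regions with a lower mean was not computed on this scale. Regions called in all lists had a median log2 difference of -0.36 on it, so a lower mean was not particular to the 7. All Cgas_KO libraries were below all WT libraries in 2 of the 7, again beside 34% of regions called in all lists. The stretch of chromosome 12 from 18 to 24 Mb, which no naming rule picked, held 8 broad regions. They were broad in 0, 0 and 0 cases in the Cgas_KO lists and in 5, 3 and 4 cases in the WT lists. Over all 1638 broad regions, 717 (43.8%) were broad in 1 WT list and no Cgas_KO list, and 51 (3.11%) in 2 WT lists and no Cgas_KO list.

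Whether the strength of binding differed at broad regions was tested over the 4896 regions that all peaks of chromosomes 1 to 19, X and Y formed in all 6 lists. Of the 1638 broad regions, 1055 (64.4%) lay in 1016 of these, and the other regions lacked a peak in at least 1 list and could not be tested. Being tested needed a peak in every library, so counts over the 1016 describe regions bound throughout. Ranks of height within each library, as normal scores, were compared with limma. At a Benjamini-Hochberg adjusted p under 0.05, 0 of the 1016 and 0 of all 4896 were called (0% of the background), the lowest limma adjusted p being 0.314 in both. At an unadjusted p under 0.05, 77 of the 1016 (7.58%) were higher in Cgas_KO, where 5.58% of all regions were, and 26 (2.56%) were lower, where 3.84% of all regions were. With log2 height over the median region in place of ranks, limma gave 1 call at an adjusted p under 0.05 among the 1016 (0.0204% of all regions). At an unadjusted p under 0.05 it gave 90 of the 1016 (8.86%) higher in Cgas_KO, where 6.94% of all regions were, and 94 (9.25%) lower, where 11.4% of all regions were.

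The region called on that scale was chromosome 1 from 171352129 to 171397767, which takes in the WT-only broad region described above, at a log2 difference of -1.60 with an SE of 0.23 and an adjusted p of 0.0270 by limma. It was lower in 3 of 3 Cgas_KO libraries and its adjusted p on ranks was 0.314. By ranks, the other broad regions with the smallest p lower in Cgas_KO were chromosome 3 from 89220951 to 89231386, with 17, 16 and 12 steps in Cgas_KO and 34, 36 and 28 in WT, and chromosome 18 from 66051157 to 66062367, with 22, 23 and 14 steps in Cgas_KO and 44, 42 and 46 in WT. Those higher in Cgas_KO were chromosome 13 from 24795266 to 24804063, with 25, 28 and 19 steps in Cgas_KO and 16, 10 and 15 in WT, chromosome 1 from 159869277 to 159878882, with 24, 23 and 19 against 14, 17 and 16 steps, and chromosome 8 from 72566026 to 72615536, with 30, 36 and 23 against 24, 21 and 27 steps. None of these 6 passed the adjustment on ranks (limma adjusted p = 0.314 for each). The last of them was broad in all 6 lists.

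Over the list median, regions bound in all lists were lower in Cgas_KO, and the regions broad in all 6 lists differed less between genotypes. This reading was made after the data were seen. Regions called in all 6 lists had a median height of 1.69 ± 0.0450 times the list median in Cgas_KO and 2.10 ± 0.0397 times in WT (SD, n = 3 each). The 54 of them that held broad peaks of all 6 lists stood at 2.54, 2.5 and 2.36 times in Cgas_KO replicates 1, 2 and 3 and at 2.46, 2.23 and 2.61 times in WT replicates 1, 2 and 3, or 2.47 ± 0.0905 and 2.43 ± 0.190, with overlapping libraries. Set over the median region instead, they stood at 1.46 ± 0.0174 in Cgas_KO and 1.16 ± 0.0927 in WT, and the libraries no longer overlapped. The median log2 difference between genotypes was -0.06 in the 54 and -0.36 in all 4896 on the first scale, and 0.25 and -0.04 on the second. The direction for the 54 thus depended on the scale. Their distance from all regions was 0.29 on both by construction, since the scales differ by 1 constant per library, and 0.13 when total signal took the place of height.

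Counts over single regions were taken from the same heights, so they are no separate support. Their direction also depended on the scale. Over the median region, all Cgas_KO heights were above all WT heights in 22 of the 54 (40.7%), where 9.05% of all 4896 regions were, and below in 3 (5.56%), where 15.2% were. Over the list median, 3 of the 54 (5.56%) were above, where 1.82% of all regions were, and 11 (20.4%) were below, where 34% were. At an unadjusted limma p under 0.05 on ranks, 14 of the 54 (25.9%) were higher in Cgas_KO, where 5.58% of all regions were. On the same test 0 were lower, where 3.84% of all regions were, and 0 passed the adjustment. Membership needed a broad peak in every library, including Cgas_KO replicate 3 with its narrow peaks. For the 84 regions that held broad peaks of all 3 WT lists, whatever the Cgas_KO lists showed, the distance from all regions was 0.27, but 54 of the 84 are the same regions. The other 30 had a median log2 difference of 0.12 over the median region, where all regions had -0.04. On total signal the 30 had -0.154, where all regions had -0.0124, so their direction depended on the measure. For the 23 of the 54 outside chromosomes 1, 4 and 8 the distance was 0.31. The 54 were also far wider than the rest, with a median of 46624 bp against 7342 bp for all 4896, and a height is the highest point over the whole region. The part that width plays in the result was not tested.

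**Figure D4:**
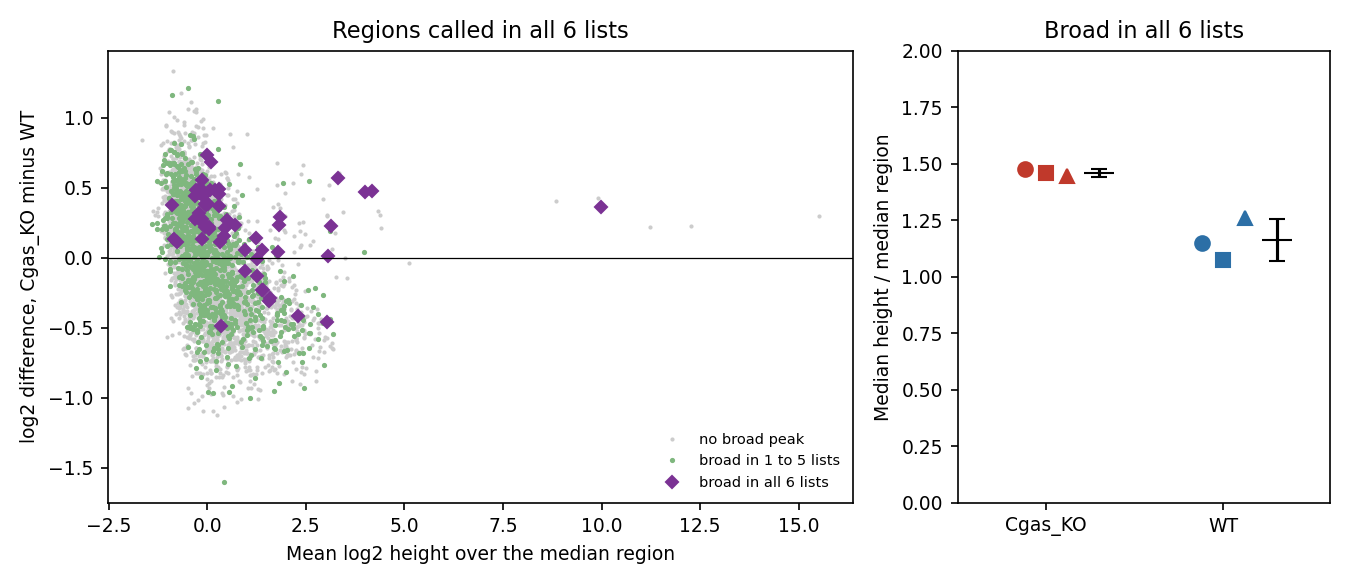
Left, log2 difference in height (Cgas_KO minus WT) against mean log2 height, both over the median region, for the regions called in all 6 lists, with regions broad in 1 to 5 lists in green and those broad in all 6 in purple; most purple points lie above 0. Right, the median height of the 54 regions broad in all 6 lists over the median region, 1 point per library with mean and SD, 1.46 ± 0.0174 in Cgas_KO and 1.16 ± 0.0927 in WT.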

How the data were processed

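CTCF was profiled in 3 Cgas_KO and 3 WT libraries, grouped by the labels, with 1 peak list for each library. SEACR 1.3 and Bowtie2 appear in the submitters' processing notes, as do the builds mm10 and mm39. Scaffold names in every list are those of mm39. Each deposited peak carries its total and maximum signal, computed by the authors. Neither scaling nor a control library is given in the sources used here. Values were used within a list, as ratios to its median, as ranks, or in steps, since maxima under 200 steps were whole multiples of 1 step within 0.01 step for 100% of peaks. A step is assumed to mean the same in every list where steps are set side by side. With depth unknown, there are no counting intervals.

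Peaks of 8000 bp or more on chromosomes 1 to 19 were merged at an overlap of 1 bp. A list was split where it had no broad peak but 2 or more peaks in a region. Regions of all peaks were formed likewise on chromosomes 1 to 19, X and Y, and those in all 6 lists were tested on height with limma 3.58.1 (R 4.3.3), with Benjamini-Hochberg adjustment at 0.05, tested on simulated data beforehand. Per-library values used a two-sided exact permutation test. The rest was done in Python 3.11.15 with scipy 1.17.1, pandas 2.3.3 and numpy 2.4.6, and plots with matplotlib 3.10.9. Members and lists were chosen with earlier results of these data known. The stretch of chromosome 12 was named outside the rules that follow. Regions were named by rule: the 10 widest, the 10 highest broad in all lists, up to 5 broad in 1 genotype only, the 3 smallest limma p in each direction, the 3 most split, and the 5 clusters with most regions. The replicate numbers are shared between genotypes. Deviations from the group means of same-numbered libraries correlated at -0.017 to -0.013 over 4896 regions. These values cannot settle whether the samples were paired, and the main fit used no pairing.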

Additional observations from a re-analysis of the deposited data

How the results depend on the processing

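The number of broad regions depended on the width limit, with 5464 from 6000 bp, 563 from 10000 bp and 890 when the widest 1% of each list was taken, against 1638. The difference in broad peaks per list was -298 from 6000 bp, 19 for the widest 1% (fixed by list length), and -176 to 23.2 with a library left out. Total regions were 1337 to 1603 with a library left out. Regions broad in 1 genotype only numbered, for Cgas_KO and WT in turn, 7 and 25 from 6000 bp, 0 and 4 from 10000 bp, and 2 and 3 for the widest 1%. With a library left out they were 2 to 15 and 7 to 34; fewer lists are then required, so a rise is built in. The share within 500 kb of another was 90.9%, 61.6% and 65.8% under those 3 limits, which change the number of regions, and 71.8% to 74.3% with a library left out. The genotype difference in height over the list median reversed to 0.0235 from 6000 bp, 0.0834 from 10000 bp and 0.0749 against the list mean of log2 height, and was -0.0962 to 0.0629 with a library left out. That in mean signal reversed to -0.00803 for the widest 1% and was -0.0164 to 0.0940 with a library left out. Flatness (0.0108 to 0.0281), offset of the maximum (2.84 to 4.98) and the difference in split share (3.66 to 5.80) kept their sign; the last was 1.11 from 6000 bp. Limma gave 1 call on the log2 scale and 0 under each other alternative run. Before adjustment, p was under 0.05 for 184 broad regions on the log2 scale (18.1%, all regions 18.3%), 28 of 146 at 50% coverage (19.2%, all 14.3%), and 72 to 114 with a library left out (7.09% to 11.2%, all 6.99% to 11.2%). With the replicate block limma called 0 regions, and 82 had p under 0.05 before adjustment. The block leaves per-library differences at their values by construction. The distance of regions broad in all 6 lists from all regions was 0.135 on total signal and 0.292 to 0.355 with a library left out, alternatives chosen after the data were seen. Where no cause is named, the cause was not tested.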

Other observations

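Broad peaks outside chromosomes 1 to 19 entered no comparison. On chromosome X there were 19, 27 and 16 in Cgas_KO replicates 1, 2 and 3 and 34, 22 and 36 in WT replicates 1, 2 and 3, with overlapping genotypes. As a share of the peaks on X this was 1.38% to 2.69% in Cgas_KO and 1.93% to 3.35% in WT. Every library had 1 broad peak over the mitochondrial sequence, and unplaced or unlocalised scaffolds held 14 to 17 broad peaks per Cgas_KO list and 19 to 20 per WT list. No explanation of these values was tested.

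In regions where a list had no broad peak but did have a peak, the median height was 1.43, 1.43 and 1.45 times the list median in Cgas_KO replicates 1, 2 and 3 and 1.71, 1.77 and 1.71 times in WT replicates 1, 2 and 3. The genotypes did not overlap. Regions called in all lists had the same ordering, so it was not particular to these regions. They stood at 1.69 ± 0.0450 times in Cgas_KO and 2.10 ± 0.0397 times in WT (SD, n = 3 each). Median heights of the broad peaks themselves, 1.5 to 1.82 times in Cgas_KO and 1.54 to 1.71 times in WT, did overlap. Those medians are over peaks and the values above are over regions, so the contrast is not like for like.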
